A study of Homo sapiens with 15 samples.

Results

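RNA was measured in cultures of human embryonic stem cells (ESCs), of self-renewing neuromesodermal progenitors (srNMPs) made from them, and of the muscle and neurons that srNMPs were turned into. The genes described here are 10 markers of tendon, cartilage and fibroblasts, chosen by name: *TNMD*, *SCX*, *MKX*, *ACAN*, *LUM*, *DCN*, *POSTN*, *PDGFRA*, *PDGFRB* and *TCF21*. Of these, 9 were among the 17999 genes of the table, and *TCF21*, a transcription factor of fibroblast lineages, was not analysed here. The question was how far non-muscle cells of the connective tissues are represented in cultures labelled skeletal muscle, at day 50 and at day 40 of induction.

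The 15 libraries formed 9 groups of cells with WT genotype, made with the lines H1 and HUES9, which are long-established lines of human embryonic stem cells. Muscle at day 50 and muscle at day 40 followed skeletal muscle induction and held 1 HUES9 library each. Ventral neurons, dorsal neurons, 7-day neuron progenitors labelled RASS, 7-day neuron progenitors labelled RABC, srNMPs at passage 25 and srNMPs at passage 8 each held 1 library of H1 and 1 of HUES9, and all are labelled as neural induction. The ESC group held 1 HUES9 library with no induction. The labels leave RASS and RABC unexplained, and do not say whether both muscle days came from 1 differentiation. Muscle was made from HUES9 alone, so muscle and this line cannot be told apart except through the other HUES9 libraries, which entered every comparison. The p-values measure the spread between the libraries of the 6 groups that hold both lines, which may be technical.

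Tendon, cartilage and the fibroblasts of muscle are connective tissues in which resident cells build an extracellular matrix of collagen and proteoglycans. In the trunk of the embryo, tendon and cartilage arise from the sclerotome, the part of the somite next to the one that forms skeletal muscle. In muscle itself, fibroblasts and fibro-adipogenic progenitors, which carry the receptor PDGFRA, lie between the fibres, and pericytes, which carry PDGFRB, lie along capillaries.

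Levels are in FPKM, the fragments of a gene divided by its length in kilobases and by the sequencing depth. Summed FPKM ranged from 290306 to 421109 per library, and 10785 to 12102 genes reached 1 FPKM. Depth relative to the mean of all libraries, roughly estimated from the lowest values, lay between 0.957 and 1.026. Both RABC libraries and both srNMP libraries at passage 8 shared the top value, so the estimate does not separate them. The RASS libraries stood apart. The HUES9 minus H1 difference of that group correlated negatively across genes with that of all 5 other groups that hold both lines (r from -0.53 to -0.17), while the 10 correlations among the others ran from 0.07 to 0.38. Each result was therefore also computed with the RASS lines exchanged and without both RASS libraries. This changed a call for *PDGFRB* and *POSTN* in srNMPs against ESCs, given with those results.

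The cultures labelled skeletal muscle carried their defining markers. Of 18 skeletal muscle genes, 17 reached 1 FPKM in each muscle library, and their summed level was 6439 FPKM at day 50 and 4036 FPKM at day 40, against 4.32 to 18.6 FPKM in srNMPs. *MYOD1*, a myogenic regulator, was at 126 FPKM at day 50 and 67.3 FPKM at day 40. *MYH3*, the embryonic myosin heavy chain, was at 1952 FPKM at day 50 and 1304 FPKM at day 40. Connective tissue transcripts were present in the same libraries. Levels in whole cultures do not separate fewer cells of a type from less RNA per cell.

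The 9 genes together summed to 1141 FPKM in muscle at day 50 and 1596 FPKM at day 40. The sum was 4.53 to 9.08 FPKM in neurons, 1.23 to 1.90 FPKM in progenitors, 1.98 to 3.35 FPKM in srNMPs and 5.10 FPKM in ESCs. Each of the 9 genes was higher in both muscle libraries than in any of the other 13 libraries. The share of all genes with that order was not computed, so this is a description. All 9 were called higher in muscle than in srNMPs by limma on log2(FPKM + 1), at an adjusted p under 0.05, where 49.8% of the 14129 genes tested were called, 18.2% higher and 31.6% lower. All 9 were also called higher in muscle than in neurons, where 46.5% of genes were called, 14.6% higher and 31.9% lower. These 2 comparisons share the muscle libraries. *MKX*, *ACAN*, *LUM* and *DCN* were tested only because muscle lifted them over the filter of 1 FPKM. The count of 9, and the p and SE printed below for these genes, are therefore descriptions and are read as no more. The median log2 change of the 9 was 4.97 against srNMPs and 4.78 against neurons, beside -0.22 and -0.34 over all genes tested.

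**Figure D1:**
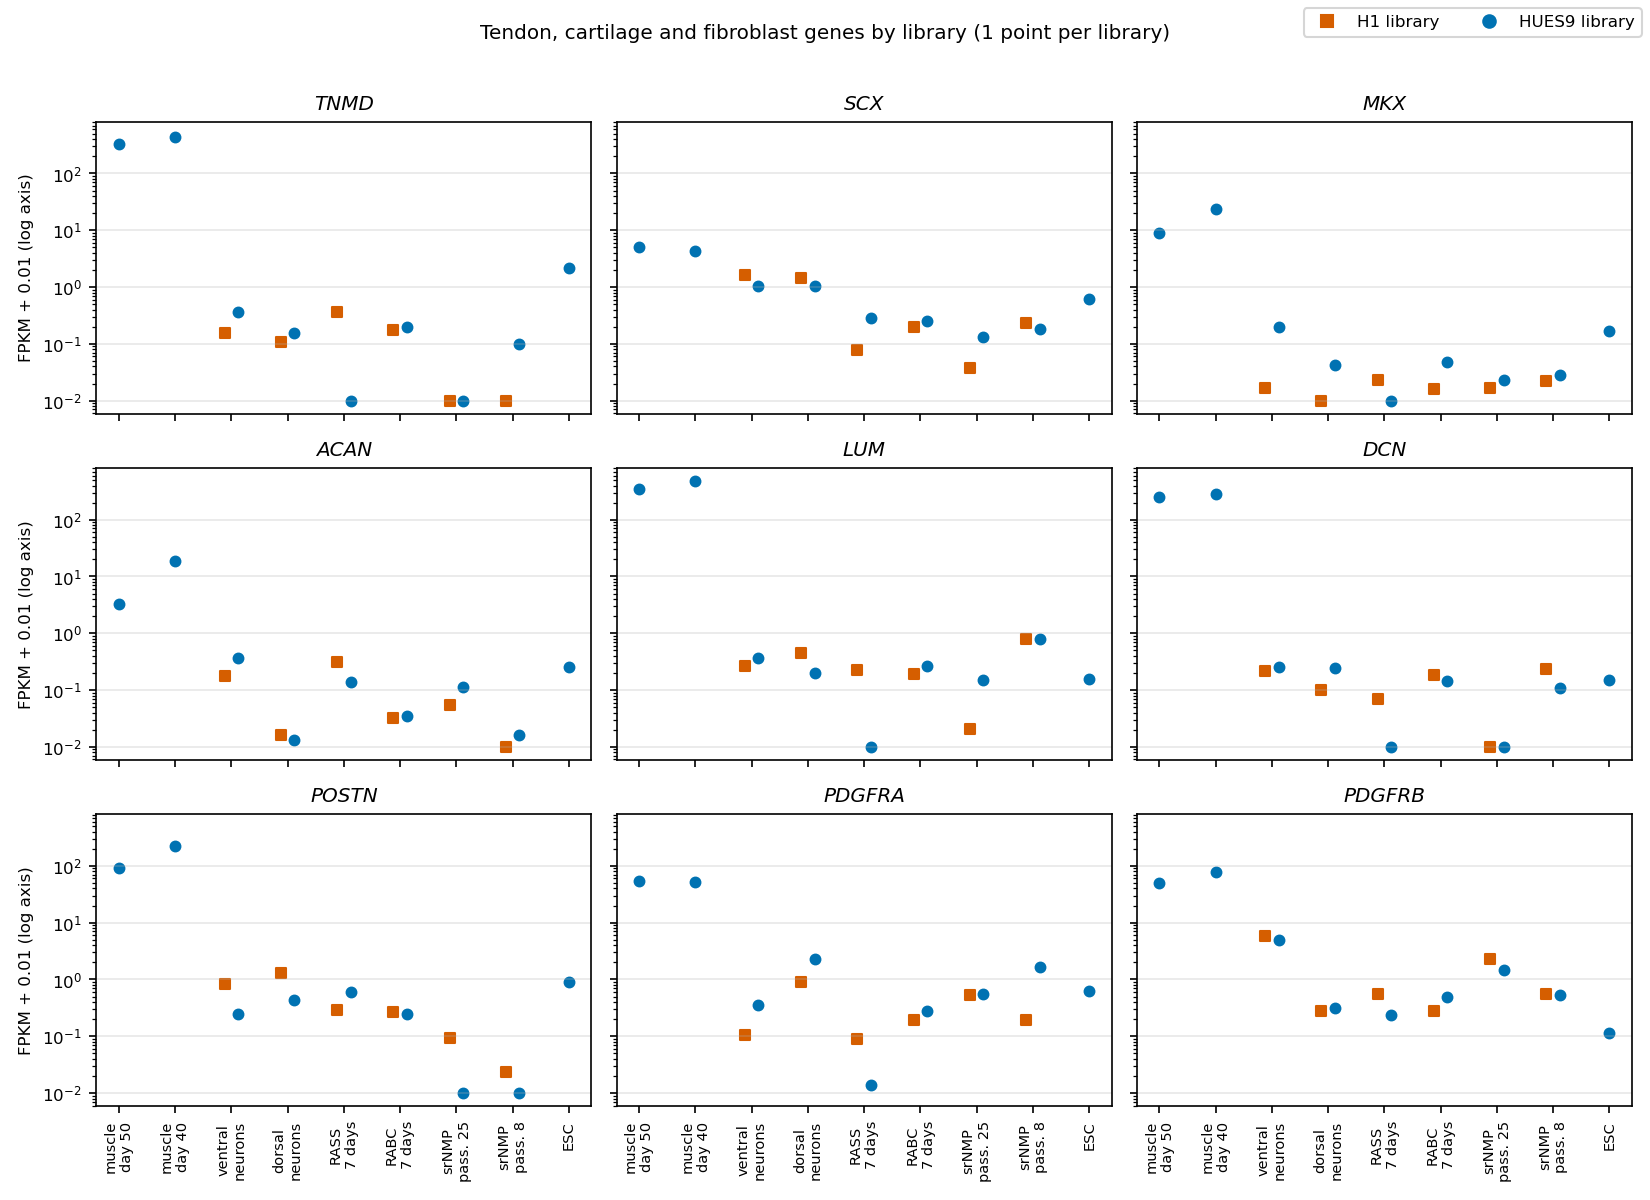
FPKM + 0.01 on a log axis for each of the 9 genes, with 1 point per library, squares for H1 and circles for HUES9. Both muscle libraries lie above all other libraries in every panel, by the widest margin for *DCN* and by the narrowest for *SCX*.

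The tendon genes were not at like levels. *TNMD* encodes tenomodulin, a membrane protein of mature tendon cells. It was at 328 FPKM in muscle at day 50 and 437 FPKM at day 40, which placed it 117th at day 50 and 82nd at day 40 among all genes of those libraries. In the other libraries it was at 0.146 and 0.349 FPKM in ventral neurons, 0.0963 and 0.143 FPKM in dorsal neurons, 0.353 and 0 FPKM in RASS, and 0.164 and 0.186 FPKM in RABC (H1, then HUES9). In srNMPs it was listed at 0 in 3 libraries and at 0.0912 FPKM in HUES9 at passage 8, and ESCs had 2.19 FPKM. The lower muscle library was thus 150-fold above the highest other library, which was the ESC library. *TNMD* rose by 8.54 ± 0.17 log2 units in muscle against srNMPs (SE, limma adjusted p = 4.99e-08) and by 8.33 ± 0.17 against neurons (limma adjusted p = 5.65e-08).

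*SCX* and *MKX* encode transcription factors, scleraxis of early tendon progenitors and mohawk of later tendon cells. *SCX* was at 5.08 FPKM in muscle at day 50 and 4.23 FPKM at day 40, and ranked 7394 at day 50 and 7882 at day 40 among all genes. It was the gene of the set with the narrowest gap, since neurons had 1.61 and 1.05 FPKM when ventral and 1.43 and 1.03 FPKM when dorsal (H1, then HUES9). The lower muscle library was 2.63-fold above the highest neuron library. *SCX* rose by 2.33 ± 0.15 log2 units in muscle against srNMPs (limma adjusted p = 2.85e-05) and by 1.34 ± 0.15 against neurons (limma adjusted p = 0.000467). *MKX* was at 8.95 FPKM at day 50 and 23.6 FPKM at day 40 in muscle, and between 0 and 0.188 FPKM in all other libraries. Its highest value outside muscle was in HUES9 ventral neurons, 47.7-fold below the lower muscle library. *MKX* rose by 3.92 ± 0.09 log2 units against srNMPs (limma adjusted p = 9.84e-08). The SE of *MKX* comes from libraries where it was near 0 and does not measure the gap between the muscle days. As *MKX* was tested only because of muscle, its p is a description.

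Both transcription factors share their place with a gene on the opposite strand in GENCODE 29 on GRCh38, *SCX* with *BOP1* and *MKX* with *MKX-AS1*. The kit keeps strand, but the strand setting of the counting is not given in the sources used here, so their levels are uncertain to that extent. *BOP1*, a ribosome assembly gene, was at 12.4 to 15.1 FPKM in muscle, 13.3 to 16.7 FPKM in neurons, 23.7 to 35.8 FPKM in progenitors, 27.1 to 31.7 FPKM in srNMPs and 54.9 FPKM in ESCs. It was thus lower in muscle and neurons than in srNMPs, where *SCX* was higher, but both genes were higher in ESCs than in srNMPs and at day 50 than at day 40. *PDGFRA* overlaps a gene model on its own strand, AC058822.1, which strand cannot separate from it, so its level is also uncertain.

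SCX is known to bind the motif CANNTG, called an E-box, and the 250 bases before the start of *TNMD* and of *MKX* are shown to compare the promoters of a tendon surface protein and a tendon transcription factor that were both higher in muscle. They were taken from RefSeq for GRCh38.p14 and are printed 5′ to 3′ on the strand of the gene, with each CANNTG in capitals. They are chrX:100584686-100584935 on the plus strand for *TNMD* and chr10:27745820-27746069 on the minus strand for *MKX*.
TNMD: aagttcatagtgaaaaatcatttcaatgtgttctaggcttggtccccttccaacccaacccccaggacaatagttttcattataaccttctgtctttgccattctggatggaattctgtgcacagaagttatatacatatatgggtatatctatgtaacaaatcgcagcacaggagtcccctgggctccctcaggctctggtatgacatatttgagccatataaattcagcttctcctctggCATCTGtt
MKX: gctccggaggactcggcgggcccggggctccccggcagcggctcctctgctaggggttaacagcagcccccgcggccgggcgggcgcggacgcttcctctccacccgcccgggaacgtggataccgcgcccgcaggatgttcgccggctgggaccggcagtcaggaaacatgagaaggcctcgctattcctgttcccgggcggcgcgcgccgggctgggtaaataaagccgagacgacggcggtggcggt
The *TNMD* window held 1 CANNTG and the *MKX* window 0, while 61.8% of 35116 human promoter windows of this length held at least 1. CANNTG reads the same on both strands. The windows differed in base composition, with 42.0% G and C and 1 CG dinucleotide for *TNMD* against 72.4% and 34 for *MKX*. The median over all windows was 58.0%, with quartiles of 46.4% and 68.0%, and 11 CG dinucleotides. Of the 10 genes, 7 had a promoter in the RefSeq table. A match to these letters is a description of the window and not a binding site.

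The wider tendon list held 20 genes, chosen with earlier results of these data known, as were all lists here, and 7 of them were tested only because of muscle. Of the 20, 17 were called higher, 1 lower and 2 were not called in muscle against srNMPs, with a median log2 change of 3.75 beside -0.22 over all genes. The count is therefore a description. *COL12A1*, a collagen on the surface of fibrils, was at 360.1 FPKM at day 50 and 689 FPKM at day 40 and rose by 8.46 ± 0.25 log2 units (limma adjusted p = 3.27e-07). *THBS2*, a thrombospondin, was at 65.3 FPKM at day 50 and 143 FPKM at day 40 and rose by 5.999 ± 0.31 (limma adjusted p = 8.07e-06). The exceptions, named after their values were seen, were *THBS4*, which fell by 1.13 log2 units (limma adjusted p = 0.0431), and *EGR1* and *COL14A1*, which did not pass the test.

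*ACAN* encodes aggrecan, the large proteoglycan that holds water in cartilage. It was at 3.28 FPKM in muscle at day 50 and 18.5 FPKM at day 40. In the other 13 libraries it lay between 0 and 0.352 FPKM, highest in HUES9 ventral neurons, so the lower muscle library was 9.33-fold above the highest of them. *ACAN* rose by 3.13 ± 0.11 log2 units against srNMPs (limma adjusted p = 7.08e-07) and by 3.02 ± 0.11 against neurons (limma adjusted p = 8.99e-07). These p and SE are descriptions, as *ACAN* was tested only because of muscle. The size rested on the day: against srNMPs the change was 2.04 without the day 40 library and 4.22 without the day 50 library.

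The wider cartilage list held genes called in both directions. Of 17 tested, 11 were called higher in muscle than in srNMPs, 3 lower and 3 were not called, with a median log2 change of 1.37. Among the 17, 3 were tested only because of muscle. *COL11A1*, a fibrillar collagen of cartilage and other tissues, was at 111 FPKM at day 50 and 239 FPKM at day 40 and rose by 3.52 ± 0.46 (limma adjusted p = 0.000871). The genes called lower were *CNMD*, which encodes chondromodulin and is the nearest relative of *TNMD*, *COL9A1*, a collagen of cartilage fibrils, and *SOX5*, a transcription factor of chondrocytes. Those not called were *SOX9*, the regulator of chondrocyte fate, *COL2A1*, the main cartilage collagen, and *SNORC*. *COL2A1* was at 85.8 FPKM at day 50 and 121 FPKM at day 40 in muscle, with a change of 0.76 log2 units against srNMPs (limma adjusted p = 0.296). *SOX9* was at 3.20 FPKM at day 50 and 2.90 FPKM at day 40, with a change of 0.42 (limma adjusted p = 0.606). The genes called lower or not called were picked out with their values known. *CNMD* was listed at 0 at day 50 and at 0.0198 FPKM at day 40, where *TNMD* was among the most abundant transcripts.

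Aggrecan is held in the matrix by hyaluronan and link proteins. Of 10 genes of the aggrecan family and its partners, 6 were called higher in muscle than in srNMPs and 4 were not called, with a median change of 1.35. Against neurons 5 were called higher, 3 lower and 2 were not called. The list summed to 249 FPKM in muscle at day 50 and 219 FPKM at day 40. In neurons it summed to 92.6 to 323 FPKM, highest in HUES9 ventral neurons, so its sum was not highest in muscle. *CD44*, the hyaluronan receptor, was at 14.6 FPKM at day 50 and 19.4 FPKM at day 40 and rose by 3.84 ± 0.14 (limma adjusted p = 1.13e-06). *HAPLN3*, the link protein gene next to *ACAN* in the annotation, was at 8.74 FPKM at day 50 and 17.3 FPKM at day 40 and rose by 2.33 ± 0.28 (limma adjusted p = 0.000599). *HAS2*, a hyaluronan synthase, was at 8.58 FPKM at day 50 and 4.77 FPKM at day 40 and rose by 1.74 ± 0.60 (limma adjusted p = 0.0449). Against neurons *HAS2* did not pass the test (limma adjusted p = 0.0613).

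Of 9 sclerotome genes, 5 tested only because of muscle, 6 were called higher in muscle than in srNMPs and 3 were not called, with a median change of 1.34. This count is thus a description. *PAX1*, a defining sclerotome gene, was at 1.34 FPKM at day 50 and 1.73 FPKM at day 40, and *PAX9* at 6.97 FPKM at day 50 and 9.22 FPKM at day 40. *MEOX2*, a somite homeobox gene that is not confined to sclerotome, was at 27.5 FPKM at day 50 and 53.5 FPKM at day 40 and rose by 5.29 ± 0.09 (limma adjusted p = 2.38e-08). It averaged 0.0120 FPKM in srNMPs and 0.0373 FPKM in neurons, so this p and SE do not measure how muscle varies and are descriptions. *UNCX*, a gene of the posterior sclerotome, was listed at 0 in both muscle libraries.

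*LUM* and *DCN* encode lumican and decorin, small leucine-rich proteoglycans that sit on collagen fibrils and set their spacing. *LUM* was at 346 FPKM in muscle at day 50 and 471 FPKM at day 40, and ranked 113 at day 50 and 76 at day 40 among all genes. In the other libraries *LUM* lay between 0 and 0.792 FPKM, with its highest values in srNMPs at passage 8 (0.770 FPKM in H1 and 0.792 FPKM in HUES9). *DCN* was at 255 FPKM in muscle at day 50 and 283 FPKM at day 40, and at most 0.243 FPKM elsewhere. Its lower muscle library was 1047-fold above the highest other library, the widest gap of the 9 genes, and the same gap was 437-fold for *LUM*. *LUM* rose by 8.21 ± 0.16 log2 units against srNMPs (limma adjusted p = 4.88e-08) and *DCN* by 7.97 ± 0.12 (limma adjusted p = 2.38e-08). Both genes were tested only because of muscle, so these p and SE are descriptions.

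Other small leucine-rich proteoglycans were also high in muscle. Of 15 listed genes 12 were tested, 9 of them only because muscle lifted them over the filter, so that all 12 being called higher than in srNMPs, with a median change of 4.80, is a description. *EPYC*, *OPTC* and *NYX* did not reach 1 FPKM in any library. *OGN*, osteoglycin, was at 328 FPKM at day 50 and 489 FPKM at day 40, and *ASPN*, asporin, at 289.6 FPKM at day 50 and 397 FPKM at day 40, and both were listed at 0 in srNMPs. *LUM* lies between *KERA* and *DCN* on chromosome 12 in the annotation. *KERA*, keratocan, was at 23.2 FPKM at day 50 and 32.8 FPKM at day 40, lower than *LUM* and *DCN* on the same days.

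*POSTN* encodes periostin, a secreted matrix protein of fibroblasts and of the outer layer of bone. It was at 90.8 FPKM in muscle at day 50 and 228 FPKM at day 40. Neurons had 0.830 and 0.241 FPKM when ventral and 1.29 and 0.420 FPKM when dorsal, RASS had 0.282 and 0.598 FPKM, and RABC had 0.254 and 0.239 FPKM (H1, then HUES9). In srNMPs it was at 0.0823 and 0 FPKM at passage 25 and 0.0131 and 0 FPKM at passage 8, and ESCs had 0.881 FPKM. *POSTN* was therefore high in muscle, near 0 in srNMPs, and in between elsewhere. It rose by 7.24 ± 0.23 log2 units in muscle against srNMPs (limma adjusted p = 5.3e-07) and by 6.55 ± 0.23 against neurons (limma adjusted p = 9.61e-07).

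*PDGFRA* and *PDGFRB* encode the receptor tyrosine kinases for platelet-derived growth factors (PDGFs). *PDGFRA* was at 54.97 FPKM in muscle at day 50 and 52.1 FPKM at day 40, and *PDGFRB* at 49.1 FPKM at day 50 and 78.6 FPKM at day 40. The receptors were thus at like levels at day 50, and *PDGFRB* was the higher at day 40. *PDGFRA* rose by 4.86 ± 0.29 log2 units in muscle against srNMPs (limma adjusted p = 1.69e-05) and by 4.78 ± 0.29 against neurons (limma adjusted p = 1.8e-05). *PDGFRB* rose by 4.97 ± 0.18 against srNMPs (limma adjusted p = 1.13e-06) and by 4.52 ± 0.18 against neurons (limma adjusted p = 1.97e-06).

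**Figure D2:**
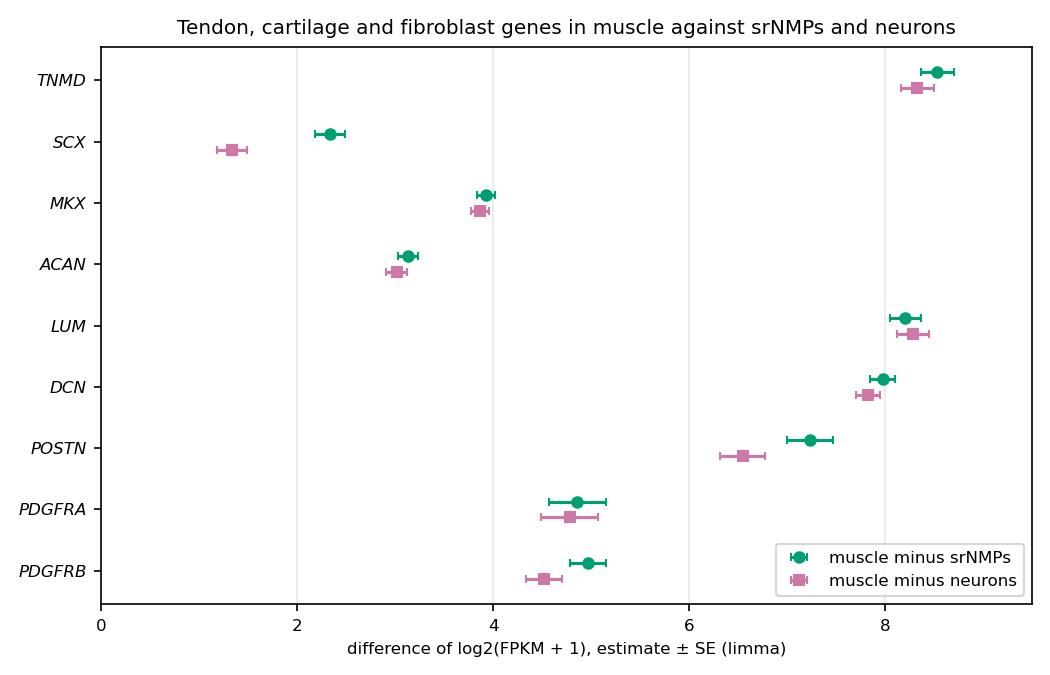
Differences of log2(FPKM + 1) between muscle and srNMPs (circles) and between muscle and neurons (squares) for the 9 genes, with bars of 1 SE from limma. *TNMD*, *LUM* and *DCN* lie near 8 in both comparisons, and *SCX* is lowest, at 2.33 against srNMPs and 1.34 against neurons.

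Ligands of these receptors were also present. Of the 7 genes of the PDGF list, receptors included, 6 were called higher in muscle than in srNMPs, with a median change of 2.58. *PDGFA*, the main ligand of PDGFRA, was at 17.5 FPKM at day 50 and 14.8 FPKM at day 40 and rose by 4.12 ± 0.13 (limma adjusted p = 3.91e-07). *PDGFD*, a ligand of PDGFRB, was at 11.9 FPKM at day 50 and 9.33 FPKM at day 40 and rose by 2.58 ± 0.29 (limma adjusted p = 0.000443). *PDGFB*, the other main ligand of PDGFRB, did not pass the test and was at 0.222 FPKM at day 50 and 0.312 FPKM at day 40.

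TGF-beta signalling is a known inducer of *SCX*, *POSTN* and collagen genes. Of 14 genes of that list, 9 were called higher in muscle than in srNMPs and 5 were not called, with a median change of 1.97. The list summed to 335 FPKM in muscle at day 50 and 546 FPKM at day 40. In srNMPs the lines differed, with 305 FPKM at passage 25 and 313 FPKM at passage 8 in HUES9. In H1 these sums were 75.9 FPKM at passage 25 and 93.3 FPKM at passage 8. *TGFB3* was at 38.5 FPKM at day 50 and 39.6 FPKM at day 40 and rose by 4.99 ± 0.14 (limma adjusted p = 2.98e-07). *CCN2*, a target of the pathway, was at 79.0 FPKM at day 50 and 205 FPKM at day 40 and rose by 4.57 ± 0.58 (limma adjusted p = 0.000784).

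The fibroblast list summed to more than the skeletal muscle list did, but most of its sum was the collagen genes *COL1A1*, *COL1A2* and *COL3A1*. The order of these sums therefore rests on which genes were listed and does not give a share of cells. The 24 fibroblast genes summed to 12298 FPKM in muscle at day 50 and 19873 FPKM at day 40. They summed to 64.6 to 109 FPKM in neurons and 225 to 285 FPKM in srNMPs. Of the 24, 10 tested only because of muscle, 21 were called higher in muscle than in srNMPs and 3 were not called, with a median change of 4.51. That count is a description. *COL1A1*, a chain of type I collagen, was at 4699.9 FPKM at day 50 and 8504 FPKM at day 40 and rose by 11.72 ± 0.37 (limma adjusted p = 4.64e-07). *COL1A2* was at 3346 FPKM at day 50 and 5992 FPKM at day 40. *COL3A1* was at 2611 FPKM at day 50 and 3016 FPKM at day 40 and rose by 10.22 ± 0.60 (limma adjusted p = 1.56e-05).

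The smooth muscle and pericyte list was high as well. Its 13 genes, *PDGFRB* included, summed to 513 FPKM at day 50 and 699 FPKM at day 40, against 66.3 to 83.2 FPKM in srNMPs, and 10 of 12 tested were called higher. Most of this sum in muscle was *ACTA2*, smooth muscle actin, at 296 FPKM at day 50 and 400.0 FPKM at day 40. The sum therefore does not give a share of cells. Other genes of the list, picked with their values known, were low. *CNN1* was at 1.96 FPKM at day 50 and 3.08 FPKM at day 40, and *RGS5* at 1.94 FPKM at day 50 but 21.1 FPKM at day 40. The osteoblast list was at 3.52 FPKM summed at day 50 and 10.5 FPKM at day 40 against 48.1 to 94.3 FPKM in srNMPs, with 1 of 4 tested called higher and 2 lower. The sum in srNMPs was mostly *ALPL*, an alkaline phosphatase at 65.0 FPKM on average there, while *RUNX2*, the regulator of osteoblast fate, rose by 1.84 ± 0.07 log2 units in muscle (limma adjusted p = 1.71e-06). *DMP1*, an osteocyte gene, was listed at 0 in both muscle libraries.

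Markers of several other cell types were at low levels in the muscle cultures, though some were higher than in srNMPs. The summed level in muscle was 4.26 FPKM at day 50 and 5.67 FPKM at day 40 for 8 endothelial genes, 1.32 FPKM at day 50 and 1.29 FPKM at day 40 for 6 blood genes, and 2.27 FPKM at day 50 and 1.99 FPKM at day 40 for 8 cardiac genes. It was 4.30 FPKM at day 50 and 7.56 FPKM at day 40 for 5 adipocyte genes, with *ADIPOQ* listed at 0 in both. It was 10.5 FPKM at day 50 and 4.03 FPKM at day 40 for 7 epicardial and mesothelial genes, with *WT1* listed at 0 in both. In srNMPs the adipocyte genes summed to 0.252 to 0.706 FPKM, the epicardial and mesothelial genes to 0.0878 to 0.360 FPKM and the endothelial genes to 0.263 to 2.12 FPKM. Against srNMPs, 2 of 3 adipocyte genes tested (*PPARG* and *FABP4*), 2 of 2 epicardial and mesothelial genes (*ALDH1A2* and *BNC1*) and 2 of 6 endothelial genes (*ERG* and *TEK*) were called higher. Among those tested, 2 adipocyte, 1 epicardial and mesothelial and 1 endothelial gene entered only because of muscle, so these counts are descriptions. The 8 neuron genes summed to 91.7 FPKM at day 50 and 62.3 FPKM at day 40, against 1409 to 1798 FPKM in neurons and 148 to 422 FPKM in srNMPs. Most of the sum in muscle was *DCX*, at 76.3 FPKM at day 50 and 43.8 FPKM at day 40, while *TUBB3* and *SYT1* were called lower in muscle than in srNMPs. The 8 neural crest and Schwann cell genes summed to 149 FPKM at day 50 and 92.2 FPKM at day 40, against 64.5 to 180.3 FPKM in neurons and 14.6 to 57.2 FPKM in srNMPs. The part of these cells in the levels of the 9 genes was not tested.

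**Figure D3:**
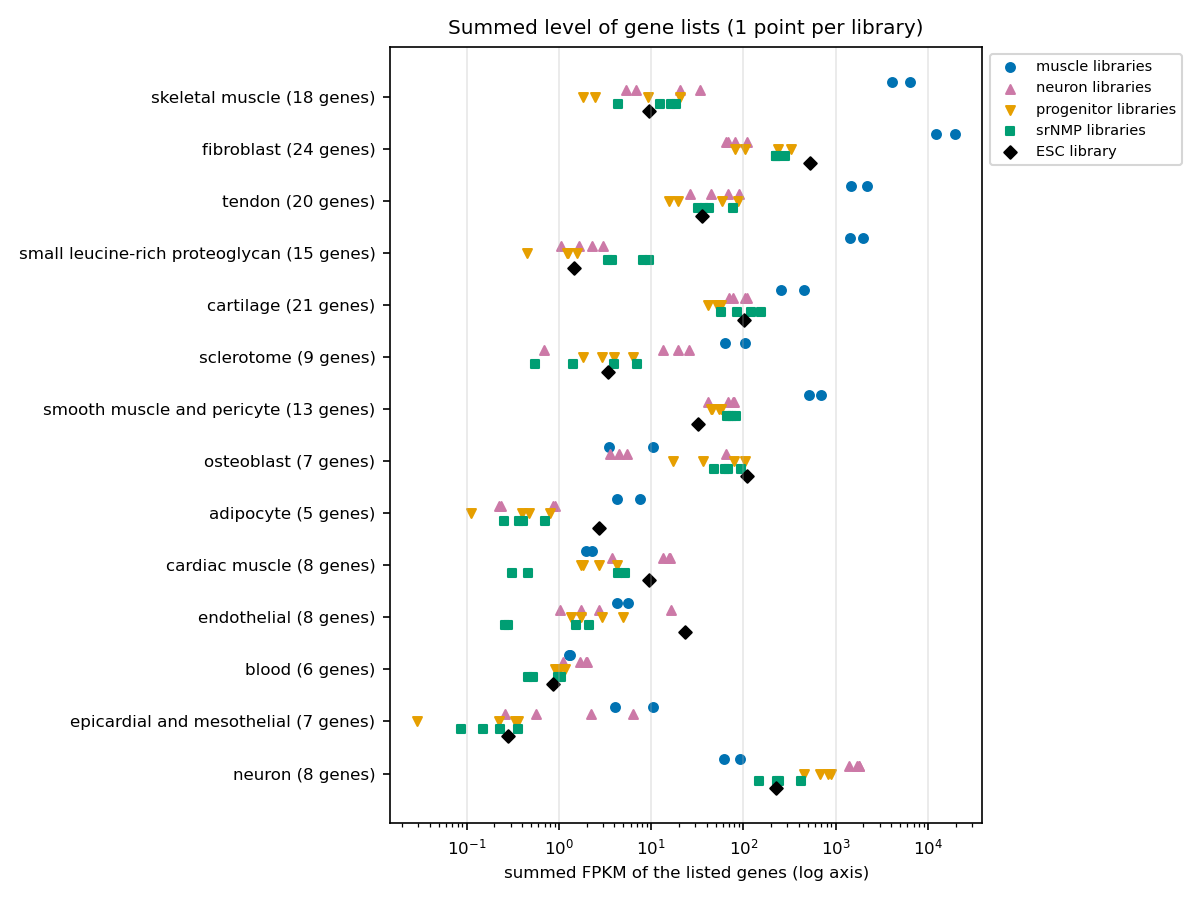
Summed FPKM of each gene list on a log axis, with 1 point per library, coloured by cell state. In both muscle libraries the skeletal muscle, fibroblast, tendon and small leucine-rich proteoglycan lists exceed every other library, whereas osteoblast, cardiac muscle and blood lists overlap the others.

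Between day 50 and day 40 muscle there was 1 library each, so the difference has no replicate check and no test was made. At day 50, 3 of the 9 genes were lower by at least 1 on the log2(FPKM + 1) scale, where 1.56% of all genes differed by as much, 0.835% lower and 0.722% higher. They were *ACAN*, with a difference of -2.19 (3.28 FPKM at day 50 and 18.5 FPKM at day 40), *POSTN* at -1.32 (90.8 FPKM at day 50 and 228 FPKM at day 40) and *MKX* at -1.31 (8.95 FPKM at day 50 and 23.6 FPKM at day 40). The differences of the others were -0.67 for *PDGFRB*, -0.45 for *LUM*, -0.41 for *TNMD*, -0.15 for *DCN*, 0.08 for *PDGFRA* and 0.22 for *SCX*. So 7 of the 9 lay below 0, or 8 after quantile normalization, and their median was -0.45 beside 0.06 over all genes. The 9 genes did not keep their proportions, since *ACAN* at day 50 was at 0.177 times its day 40 level and *PDGFRA* at 1.05 times.

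Of 20 tendon genes, 4 were lower and 1 higher at day 50 by at least 1, with a median of -0.41. Lower were *MKX*, *COMP*, a cartilage and tendon matrix protein, at -1.38, *COL14A1* at -1.27 and *THBS2* at -1.11, and higher was *SIX2*, a homeobox gene, at 1.04. Of 17 cartilage genes, *ACAN* and *COL11A1* (-1.10) were lower and 0 higher. Fibroblast genes had a median of -0.39, with *POSTN* as the 1 of 24 past this size, and 0 of 12 small leucine-rich proteoglycan genes reached it. Of 14 TGF-beta genes 3 were lower, among them *CCN2* at -1.36 and *LTBP1* at -1.35. Of 12 smooth muscle and pericyte genes *RGS5* (-2.91) and *TAGLN* (-1.68) were lower. Skeletal muscle genes went the other way, with 5 of 17 higher by at least 1, 0 lower and a median of 0.79, as for *TNNC2*, a fast troponin, at 1.05 and *PAX7*, the gene of muscle stem cells, at 2.93. All genes of this paragraph were picked for passing this size.

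**Figure D4:**
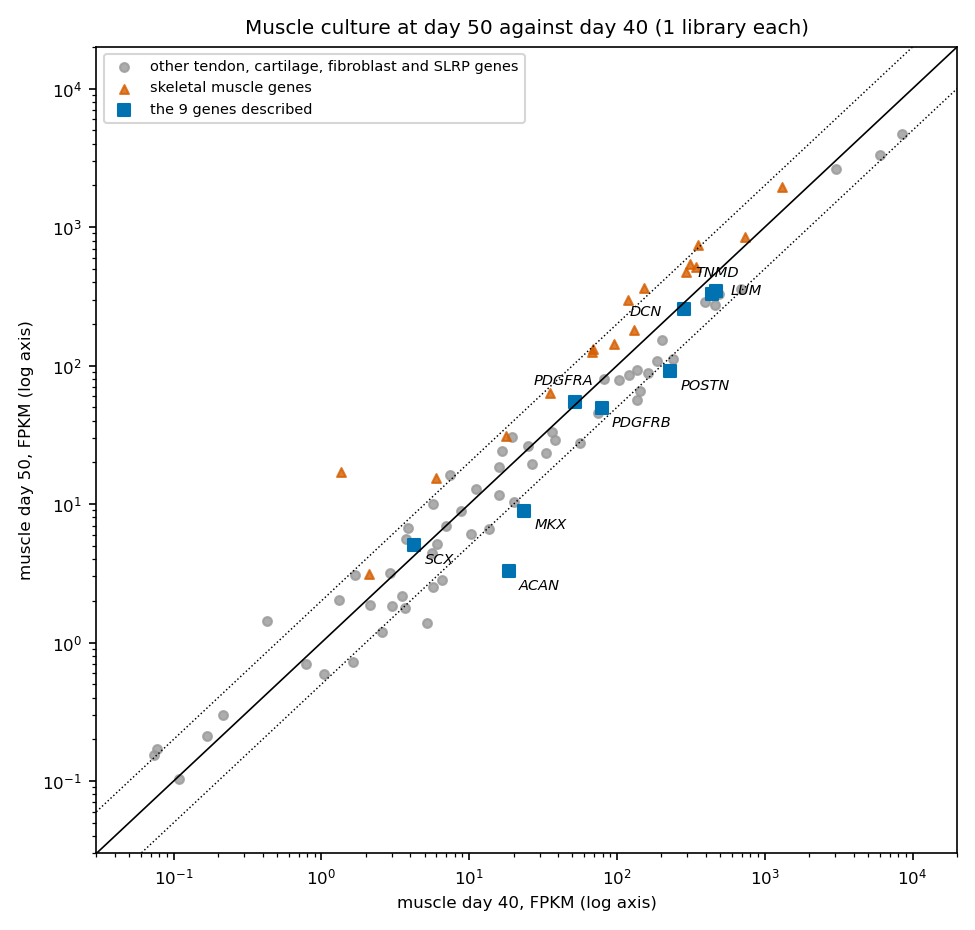
FPKM in muscle at day 50 (vertical) against day 40 (horizontal), both on log axes, 1 library each; the solid line is equality and dotted lines mark a factor of 2 in FPKM. *ACAN*, *MKX* and *POSTN* lie below the lower dotted line, *PDGFRA* and *SCX* lie near equality, and most skeletal muscle genes lie above it.

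Outside muscle the 9 genes did not share an order of groups. For *SCX* the mean was 1.33 ± 0.40 FPKM in ventral neurons, 1.23 ± 0.28 in dorsal neurons, 0.169 ± 0.143 in RASS, 0.215 ± 0.037 in RABC, 0.0761 ± 0.0683 in srNMPs at passage 25 and 0.198 ± 0.039 at passage 8 (SD, n = 2 each), with 0.608 FPKM in ESCs. All 4 neuron libraries stood above the others, ESCs came next, and below them RABC, passage 8, RASS and passage 25 each overlapped the next in that order. *SCX* rose by 1.00 ± 0.12 log2 units in neurons against srNMPs (limma adjusted p = 0.000707), by 1.17 in H1 and 0.83 in HUES9. *POSTN* rose by 0.69 ± 0.18 in neurons (limma adjusted p = 0.0163) and *PDGFRB* by 0.45 ± 0.14 (limma adjusted p = 0.0321). For *PDGFRB* this averages neurons that went opposite ways, since both dorsal libraries (0.268 and 0.300 FPKM) were below all 4 srNMP libraries (0.532 to 2.32 FPKM) and both ventral libraries above them. These were the 3 of 9 genes called higher in neurons, where 28.8% of all genes were called higher. The call of *POSTN* was lost in HUES9 alone (limma adjusted p = 0.497) and without any of 3 H1 libraries, dorsal neurons, ventral neurons or srNMPs at passage 25 (limma adjusted p from 0.055 to 0.0592). The call of *PDGFRB* was lost without 7 of the 8 libraries in turn (limma adjusted p from 0.058 to 0.107), in HUES9 alone (limma adjusted p = 0.597), with a pseudocount of 0.1 (0.322) and with quantile normalization (0.355).

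*PDGFRB* divided the neurons. It was at 5.77 FPKM in H1 and 5.02 FPKM in HUES9 ventral neurons, against 0.268 FPKM in H1 and 0.300 FPKM in HUES9 dorsal neurons. Both ventral libraries were above every other library except those of muscle. *PDGFRB* rose by 2.31 ± 0.20 log2 units in ventral against dorsal neurons (limma adjusted p = 0.00281), by 2.42 in H1 and 2.21 in HUES9. It was the 1 gene of 9 called in this comparison, where 1.47% of all genes were called higher and 0.573% lower. *PDGFRA* was lower in both ventral libraries (0.0942 and 0.342 FPKM) than in both dorsal libraries (0.899 and 2.28 FPKM, H1 then HUES9) but did not pass the test, at -1.04 ± 0.32 (limma adjusted p = 0.167). Ligands differed too: *PDGFA* averaged 2.28 FPKM in ventral and 0.553 FPKM in dorsal neurons (1.08 ± 0.14, limma adjusted p = 0.0135), and *PDGFD* 1.05 FPKM in ventral and 8.18 FPKM in dorsal neurons (-2.23 ± 0.32, limma adjusted p = 0.0205).

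The pericyte and oligodendrocyte precursor lists were set beside this difference. The smooth muscle and pericyte list, of which *PDGFRB* was the only one of 12 called, summed to 76.6 and 78.6 FPKM in ventral and 41.5 and 67.9 FPKM in dorsal neurons (H1, then HUES9). Its median log2 change in ventral against dorsal neurons was 0.19, beside 0.04 over all genes, and 4 of the 12 had an unadjusted limma p under 0.05. *RGS5*, a gene of that list picked with its values known, was low in all neurons. It was at 0.734 and 0.667 FPKM in ventral and 1.30 and 0.647 FPKM in dorsal neurons. The oligodendrocyte precursor list, in which *PDGFRA* is a marker, summed to 6.52 and 91.9 FPKM in ventral and 1.14 and 2.83 FPKM in dorsal neurons, opposite to *PDGFRA* itself. The part of such cells in these levels was not tested.

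The bases before the start of *PDGFRB*, the gene that divided the neurons, and of *POSTN*, which was near 0 in srNMPs, are given in the same form. They are chr5:150155846-150156095 and chr13:37598769-37599018, both on the minus strand of GRCh38.p14, from RefSeq.
PDGFRB: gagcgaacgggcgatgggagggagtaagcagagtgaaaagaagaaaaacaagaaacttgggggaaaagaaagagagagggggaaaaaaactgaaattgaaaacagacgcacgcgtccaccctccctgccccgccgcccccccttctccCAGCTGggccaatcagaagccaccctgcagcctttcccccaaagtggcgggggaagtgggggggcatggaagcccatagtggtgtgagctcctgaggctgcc
POSTN: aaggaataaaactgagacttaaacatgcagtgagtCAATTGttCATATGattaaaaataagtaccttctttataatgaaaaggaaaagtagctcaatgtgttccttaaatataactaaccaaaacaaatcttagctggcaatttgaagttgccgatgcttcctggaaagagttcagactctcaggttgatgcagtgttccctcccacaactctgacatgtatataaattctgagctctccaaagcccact
The *PDGFRB* window held 1 CANNTG and 9 CG dinucleotides at 58.4% G and C. The *POSTN* window held 2 CANNTG and 1 CG dinucleotide at 36.4%. *POSTN* and *TNMD* each held TATAAA on one of the strands, as did 10.7% of all windows, while the windows of *MKX* and *PDGFRB* held none.

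**Figure D5:**
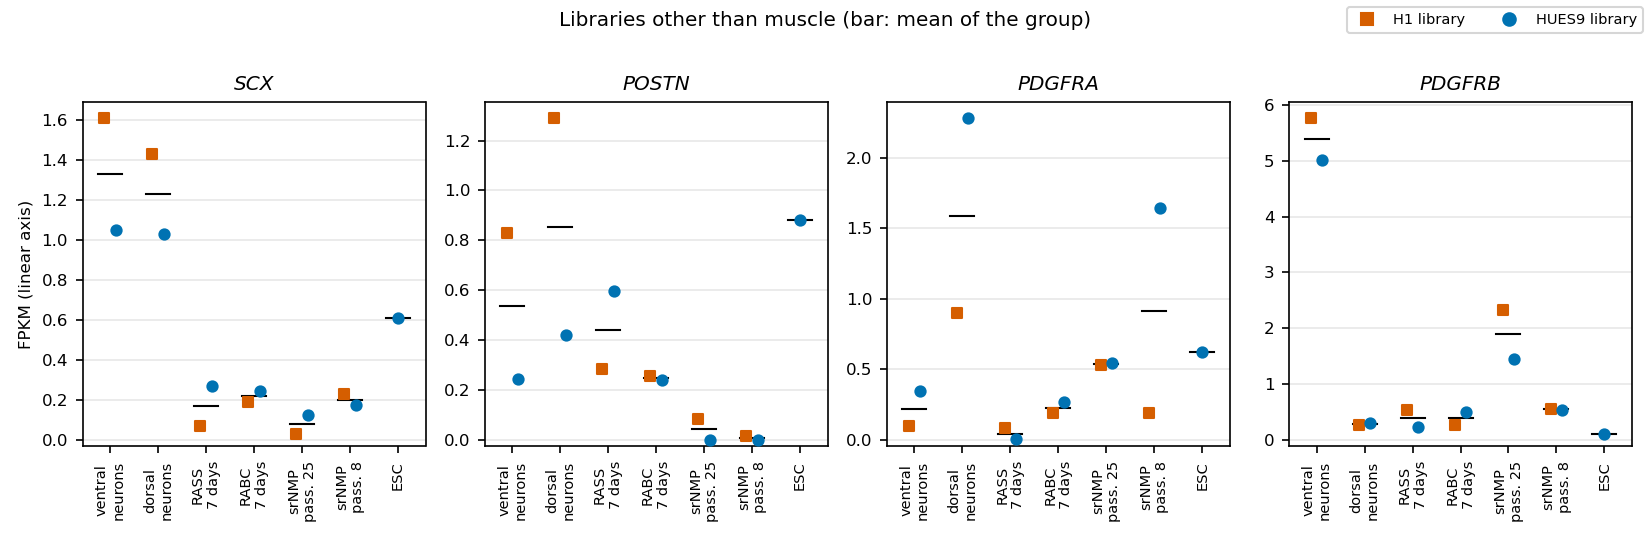
FPKM on linear axes for *SCX*, *POSTN*, *PDGFRA* and *PDGFRB* in the 13 libraries other than muscle, squares for H1, circles for HUES9 and a bar at the mean of each group. *PDGFRB* reaches 5.02 and 5.77 in ventral neurons, and *SCX* is at 1.03 to 1.61 in all 4 neuron libraries.

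In ESCs, *TNMD* was at 2.19 FPKM, against 0 to 0.0912 FPKM in the 4 srNMP libraries. *TNMD* fell by 1.64 ± 0.21 log2 units in srNMPs against ESCs (limma adjusted p = 0.00291), where 7.93% of all genes were called lower and 8.73% higher. *PDGFRB* was at 2.32 and 1.45 FPKM in srNMPs at passage 25 and 0.552 and 0.532 FPKM at passage 8 (H1, then HUES9), against 0.106 FPKM in ESCs, and was called higher by 0.87 ± 0.23 (limma adjusted p = 0.0441). That call was lost without any single srNMP library, without both RASS libraries, and under 4 other settings (limma adjusted p from 0.0518 to 0.627). *POSTN* was lower in srNMPs by 0.97 ± 0.29 without passing the test (limma adjusted p = 0.0649), and passed with the RASS lines exchanged (limma adjusted p = 0.024), a pseudocount of 0.1 or quantile normalization. The ESC library has no replicate, so these tests take its spread from the other groups.

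In the 7-day progenitors against srNMPs, by limma 0 of the 9 were called, and 2 had an unadjusted p under 0.05, where 3.43% of all genes were called, 1.73% higher and 1.69% lower. *PDGFRB* was at 0.534 and 0.228 FPKM in RASS and 0.266 and 0.489 FPKM in RABC, with a change of -0.61 ± 0.14 against srNMPs (limma adjusted p = 0.0637). *PDGFRA* was at 0.0809 and 0.00369 FPKM in RASS and 0.186 and 0.264 FPKM in RABC, with a change of -0.55 ± 0.22 (limma adjusted p = 0.196). *POSTN* was higher in all 4 progenitor libraries (0.239 to 0.598 FPKM) than in all 4 srNMP libraries (0 to 0.0823 FPKM), and its change of 0.38 ± 0.18 did not pass the test (limma adjusted p = 0.244). Levels under 1 FPKM count for little on the log2(FPKM + 1) scale, and with other settings the change of *POSTN* reached 1.82 and that of *PDGFRA* -1.67. Without the cell line term *PDGFRB* was called lower (limma adjusted p = 0.0465), and without H1 srNMPs at passage 8 *PDGFRA* was (limma adjusted p = 0.0441). Between RASS and RABC limma called 0 of the 9, with 0 at an unadjusted p under 0.05, and 0.517% of all genes were called.

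The passages of srNMPs showed differences in *PDGFRB* and *LUM* that did not pass the adjustment. *PDGFRB* was higher in both passage 25 libraries, as given above, by 0.89 ± 0.20 log2 units (limma adjusted p = 1). *LUM* was at 0.0109 and 0.141 FPKM at passage 25, against 0.770 and 0.792 FPKM at passage 8 (H1, then HUES9), a change of -0.73 ± 0.17 (limma adjusted p = 1). The passages did not overlap for either gene, but with 2 libraries each this carries little, and its share over all genes was not computed. In this comparison limma called 0 genes of the whole table (0%), and 2 of the 9 had an unadjusted p under 0.05. *PDGFRA* was at 0.529 and 0.544 FPKM at passage 25 and 0.186 and 1.64 FPKM at passage 8, where the lines differed more than the passages.

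Genes were ranked by the likeness of their pattern over the 15 libraries, as Pearson's r of log2(FPKM + 1), among genes that reached 5 FPKM. Most of each r comes from the gap between the muscle libraries and the rest, so it describes that gap. For *DCN* the closest were *RSPO3*, *OLFML1* and *MGP*, each at r = 0.999, and 136 genes exceeded 0.99. For *LUM* they were *CPED1*, *DCN* and *RSPO3*, and 105 genes exceeded 0.99. *TNMD* was closest to *ENG*, *COL21A1* and *CD109* (0.998 each), and those close to *MKX* included *RSPO2* (0.999) and *ECM2* (0.998), with 28 genes over 0.99 for each. *ACAN*, with its larger gap between the days, was closest to *WNT2*, *ITGBL1* and *COMP* (0.991 to 0.992), and 4 genes exceeded 0.99. *POSTN* was closest to *SSC5D*, *DDR2* and *ADAMTSL3* (0.992 each), with 9. No gene exceeded 0.99 for *PDGFRA*, closest to *LRRN4CL* (0.984), *COL3A1* and *GPNMB*, for *SCX*, closest to *ABLIM3* (0.977), *MEF2D* and *PDE4DIP*, or for *PDGFRB*, closest to *RERG* (0.970), *LURAP1L* and *SSPN*.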

How the data were processed

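The deposited table gives FPKM per gene symbol, which the authors made from stranded TruSeq libraries of mRNA sequenced on a NovaSeq instrument, per the labels' protocols. The submitters' processing notes name Trimmomatic, HISAT2, HTSeq, Cufflinks and genome build hg18; their versions, roles and the gene lengths used are not given in the sources used here. No coordinates are therefore given except those of RefSeq promoters. The FPKM were taken as listed, and 1 column that matched no sample was left out. Depth is not recorded in such values. Among 4051 values not above 0.1 FPKM, from 652 genes, 80.3% were multiples of the gene's smallest value to within 2%. The relative depths were fitted to these same values, and each smallest value counts as a multiple of itself. This share is therefore no check of the depths, which are rough. No counting interval was computed.

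Genes that reached 1 FPKM in some library (14129 of 17999) were tested on log2(FPKM + 1) with limma 3.58.1 in R 4.3.3, with 1 mean per group, the cell line as replicate block, a variance trend, 5 residual and 2.16 prior degrees of freedom. States of 2 groups were averaged. Tests were two-sided, adjusted by Benjamini and Hochberg over all genes of each of 8 comparisons, and called at an adjusted p under 0.05. The 3 groups of 1 library (both muscle days and ESCs) borrow the spread of the others, so for genes near 0 elsewhere the p and SE do not measure how muscle varies. Counts of list genes called in muscle are descriptions where some of the list were tested only because of muscle. Adding 1 FPKM understates changes of low genes. Pairing comes from the line named in the labels. Line differences of 6 groups gave 15 correlations across genes, of which 8 exceeded 0.1 (-0.53 to 0.38).

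The 10 genes and the 22 lists were chosen with earlier results of these data known. The rule named all 10 genes and, of each list, its first measured gene, up to 4 called genes with the largest change in muscle against srNMPs at 5 FPKM or more, markers at 0 in both muscle libraries, and 3 genes of closest pattern per gene. Some genes that fall under this rule or a printed count are not reported here. Alternatives were a pseudocount of 0.1, other filters and scalings, no replicate block, muscle days as 1 group, HUES9 only, leaving out each library, and, chosen after seeing the data, RASS lines exchanged or RASS left out.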

Additional observations from a re-analysis of the deposited data

Results flagged for a closer look

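In sets of 4 libraries of one cell state, a gene was singled out where its highest or lowest library lay far from the other 3 for the range of the set. In this way 4 of 27 sets were singled out. The cut-off is met by about 1 in 20 sets of normal values from one population. These sets mix groups and lines and hold values at 0, so that rate does not apply to them. All 4 concern levels under 1 FPKM. *TNMD* in srNMPs was at 0.0912 FPKM in HUES9 at passage 8 and listed at 0 in the other 3 libraries. *MKX* in neurons was at 0.188 FPKM in HUES9 ventral neurons, against 0 to 0.0320 FPKM in the other 3. *POSTN* in progenitors was at 0.598 FPKM in HUES9 RASS, 1 of the libraries that stood apart in the line differences, against 0.239 to 0.282 FPKM in the other 3. *POSTN* in srNMPs was at 0.0823 FPKM in H1 at passage 25, against 0 to 0.0131 FPKM in the other 3. For 10 changes, taken for an unadjusted limma p under 0.05 in these same libraries, the H1 and HUES9 values were compared. None went in opposite directions. That choice favours changes in which the lines agree, so this adds no support.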

How the results depend on the processing

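The 9 genes were called higher in muscle than in srNMPs, and than in neurons, under each of the 16 alternatives run for each comparison (144 of 144 values in each). *MKX*, *ACAN*, *LUM* and *DCN* were tested only because of muscle, so this is a description and adds no support. In the main fit 49.8% of all genes tested were called against srNMPs and 46.5% against neurons. The sizes of the changes moved: with a pseudocount of 0.1 the change against srNMPs was 5.86 for *ACAN* and 6.84 for *MKX*. Equal summed FPKM moved the median of all genes in muscle against srNMPs to -0.01, beside -0.22. In neurons against srNMPs the count of 3 genes was 1 in HUES9 only and 1 to 3 when a library was left out. In progenitors against srNMPs the count of 0 was 1 with no replicate block and 0 to 1 when a library was left out, where the 1 was *PDGFRA* without H1 srNMPs at passage 8. In srNMPs against ESCs the count of 2 was 1 with no filter, equal summed FPKM, HUES9 only, without both RASS libraries, and without any 1 srNMP library; it was 3 at most. The replicate block changed no other call of the 9 genes. The count was 1 for ventral against dorsal neurons, and 0 for RASS against RABC and for passage 25 against passage 8, under each alternative run. The causes were not tested.

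Counts over all genes moved more. In progenitors against srNMPs 484 genes were called, against 183 with no filter, 772 with no replicate block, 875 with RASS lines exchanged, 54 in HUES9 only, 25 without RASS, and 45 to 2281 when a library was left out. In neurons against srNMPs 7355 became 3238 in HUES9 only. In srNMPs against ESCs 2354 became 1389 in HUES9 only and 1503 without HUES9 srNMPs at passage 25. In ventral against dorsal neurons 288 became 177 with a filter on the mean and 137 without HUES9 dorsal neurons. Between RASS and RABC 73 became 46 with no filter, 113 with RASS lines exchanged, and 8 without H1 RABC or 32 without HUES9 RABC. Leaving out an srNMP library gave 1 to 5 calls between passages, where the full set gave 0. At day 50 against day 40, 220 genes were past the fold, and 740 with a pseudocount of 0.1.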

Other observations

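Proliferation genes moved opposite to the connective tissue genes in the muscle cultures. The 8 listed genes summed to 88.8 FPKM at day 50 and 86.3 FPKM at day 40, against 527 to 623 FPKM in srNMPs, and 7 of the 8 were called lower. *CCNB1*, a mitotic cyclin, fell by 3.38 ± 0.30 log2 units (limma adjusted p = 0.000151), while *MKI67* did not pass the test (limma adjusted p = 0.0684). Of 8 neural crest and Schwann cell genes, 2 were called higher in muscle than in srNMPs. *ERBB3*, a neuregulin receptor, was at 60.8 FPKM at day 50 and 30.4 FPKM at day 40 and rose by 3.50 ± 0.50 (limma adjusted p = 0.00123). *NGFR*, a neurotrophin receptor, was at 29.2 FPKM at day 50 and 13.3 FPKM at day 40 and rose by 2.20 ± 0.55 (limma adjusted p = 0.0137). *SOX10*, a defining gene of these cells, was at 1.04 FPKM at day 50 and 0.400 FPKM at day 40 and did not pass the test (limma adjusted p = 0.514).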
